A study of Sus scrofa with 33 samples.

Results

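The gonadotrophs of the anterior pituitary are described here through 8 genes: LHB, FSHB and CGA for the gonadotrophin subunits, GNRHR for the receptor of gonadotrophin-releasing hormone (GnRH), NR5A1 for a transcription factor of the lineage, and FST, INHBA and INHBB for the local activin and follistatin system. Their members were all probes of the array whose gene name, in any letter case, or whose symbol in the description was one of these names, which gave 22 of 60305 probes, and the 8 genes were read among 11558 genes named on the array. Pituitary RNA of 33 castrated male growing pigs was measured on single-colour Agilent arrays of porcine probes, 1 array per pig. The pigs were Large White (LW), Creole (CR) or their F1 cross, 11 arrays each, and were slaughtered either under thermoneutral conditions (TN, 24 °C in the labels, 16 arrays) or after a heat exposure (HS, 17 arrays), for which the labels give 30 °C and the text of the series 32 °C during 5 days. There were 5 LW TN, 6 LW HS, 5 CR TN, 6 CR HS, 6 F1 TN and 5 F1 HS arrays, here numbered within each group. All pigs entered the climatic room at 11 weeks of age. TN pigs were slaughtered before the rise in temperature and HS pigs after it, so that temperature, age and slaughter day cannot be told apart. Pigs of a breed included littermates, which the labels do not identify, so the p-values below measure the spread between arrays and treat related pigs as independent.

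Gonadotrophs secrete luteinising hormone (LH) and follicle-stimulating hormone (FSH). Each hormone joins the common alpha subunit encoded by CGA, which thyrotrophs also make for thyrotrophin, to a beta subunit of its own, LHB or FSHB. Hypothalamic GnRH acts through GNRHR to stimulate the synthesis and release of both hormones. NR5A1, also called SF-1, is a nuclear receptor that marks gonadotrophs among the pituitary cell types and activates the genes LHB, CGA and GNRHR. Activins are dimers of the beta subunits encoded by INHBA and INHBB and favour FSHB expression, whereas follistatin, encoded by FST, binds activins and limits their action. In castrated males the negative feedback of testicular steroids and inhibin is absent. Gene measurements on whole tissue cannot tell fewer gonadotrophs from less RNA per gonadotroph.

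The number of probes per gene was 4 for LHB, 2 for FSHB, 3 for CGA, 2 for GNRHR, 3 for NR5A1, 4 for FST, 2 for INHBA and 2 for INHBB. All had 60 bases. The scanner files name a database record for each probe, which for LHB O7182 and FSHB O2280 is a protein record, and list no genome position, so no chromosome is given. The sequences below are those of the array design, 5′ to 3′, and are shown for the probes whose target decides how the values can be read. The 3 bright LHB probes cover 1 stretch of the transcript, with the run of 15 bases that all of them hold in capitals, and are therefore not independent measurements.
LHB A_72_P223612: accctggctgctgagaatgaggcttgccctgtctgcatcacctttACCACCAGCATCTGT
LHB A_72_P651922: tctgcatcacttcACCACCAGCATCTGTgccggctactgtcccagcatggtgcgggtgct
LHB O7182: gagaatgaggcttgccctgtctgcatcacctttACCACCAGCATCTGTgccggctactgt
The probes A_72_P223612 and O7182 share 48 bases. The next sequences are the brightest CGA probe and the GNRHR probe that differed most between breeds.
CGA A_72_P077781: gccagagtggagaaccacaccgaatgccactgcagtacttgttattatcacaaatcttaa
GNRHR A_72_P442062: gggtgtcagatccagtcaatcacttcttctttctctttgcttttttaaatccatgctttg
A dim NR5A1 probe is given because it followed the bright one with a smaller breed difference, and a pair of FST probes because they did not vary together.
NR5A1 A_72_P444608: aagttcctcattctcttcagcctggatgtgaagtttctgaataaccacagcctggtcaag
FST A_72_P057356: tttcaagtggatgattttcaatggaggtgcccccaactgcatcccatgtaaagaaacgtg
FST A_72_P640386: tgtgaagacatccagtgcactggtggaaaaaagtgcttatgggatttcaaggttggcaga

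Probes entered the tests if, in any 1 of the 6 groups, 75% or more of the arrays showed them well above background, as 21 of the 22 member probes and 47083 probes in all did. The exception was 1 INHBA probe, which was well above background on 0 of 33 arrays and has only a bound. FST A_72_P098086 was well above background on 18 of 33 arrays, and the other 20 kept probes on all 33. All values are log2 of quantile-normalized intensity, and levels are not compared between probes, because a probe's brightness also depends on its sequence. For each gene the brightest kept probe is described in full.

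Gonadotroph markers were detected in this tissue. The bright probes of CGA (A_72_P077781, mean 18.99), LHB (A_72_P223612, 17.57), FSHB (A_72_P232637, 16.31), GNRHR (A_72_P442062, 12.85) and NR5A1 (A_72_P077746, 9.16) were well above background on all 33 arrays. CGA had an SD within groups of 0.0562, at percentile 0.0828 of all kept probes, and no spot of the series was saturated according to the scanner marks. Markers of the other pituitary cells were present as well, among them GH1 (19.02), POMC (19.01), PRL (18.87) and TSHB (14.92). The posterior lobe hormones AVP (16.99) and OXT (15.67) were bright, although the study's methods describe the anterior lobe. Over the 11 LW, CR and F1 arrays the mean of AVP and OXT ranged from 16.22 to 16.50, from 16.14 to 16.43 and from 16.13 to 16.41, and these ranges overlapped.

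On 3 arrays something stood apart before any comparison. The title of LW HS 3 names Large White and its breed field Creole. It was analysed by its title, and breed calls of the members and pathway genes that were lost without it or with it taken as Creole are named below. The markers of other cells were read by its title alone. Of the 47083 kept probes, 3074 were called in Large White against Creole with it read by its title. Without it 2701 were called, and 1842 with it taken as Creole. Which label is right was not tested. On LW TN 2 and CR TN 1, TSHB measured 8.55 and 10.57, whereas the other arrays of their groups lay between 14.76 and 16.35. The same arrays had the lowest LHB, FSHB, CGA, GNRHR and NR5A1 of their groups. On LW TN 2 these values were 17.10, 15.51, 18.95, 12.51 and 8.55 and on CR TN 1 they were 16.87, 15.59, 18.78, 11.92 and 7.85 in the same order. The endothelial markers and the folliculostellate S100B and ANXA1 were high there. VWF was at 12.54 and 12.45 against 10.78 to 11.83 on the other arrays of both groups, and S100B at 15.23 and 15.27 against 14.15 to 14.75. The other folliculostellate marker, ALDH1A1, was not high, at 12.55 on LW TN 2 against 12.88 to 13.05, and at 12.90 on CR TN 1 against 12.85 to 13.47. Calls of the members and pathway genes that were lost without both arrays, and the larger shifts of the members' differences, are given below.

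**Figure D1:**
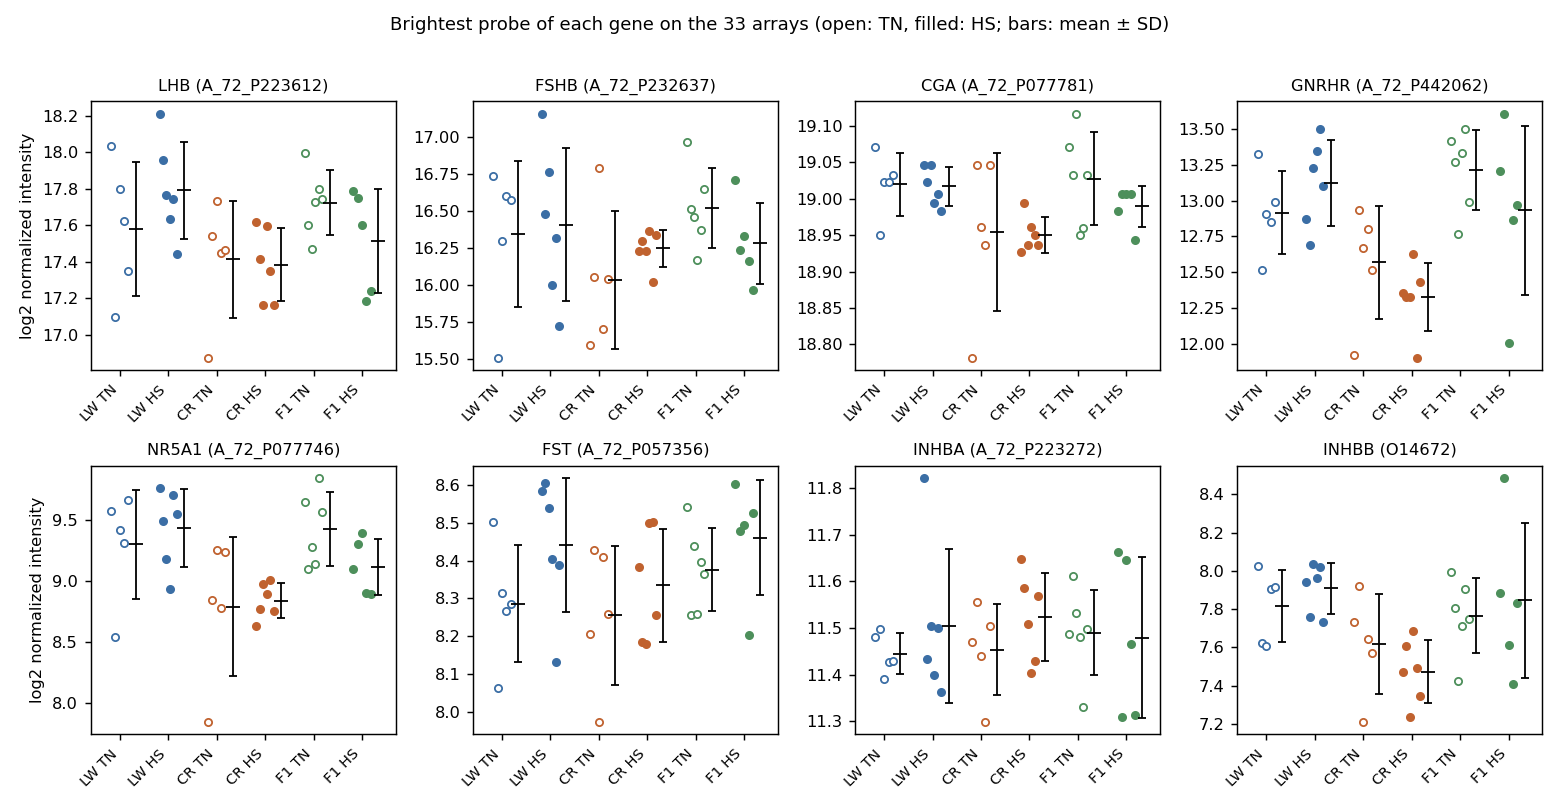
Log2 normalized intensity (vertical axes, 1 scale per gene) of the brightest probe of the 8 genes on each array, by breed and temperature group. Open circles are TN and filled circles HS arrays, and black bars are the mean ± SD. LW and F1 arrays lay mostly above CR arrays for GNRHR and NR5A1, and TN and HS arrays of a breed overlapped for every gene.

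The first comparison asked whether heat exposure changed the gonadotroph genes. No probe of the 8 genes passed the test for temperature. By limma with breed in the model, 0 of the 21 kept probes passed the threshold of an adjusted p under 0.05 (Benjamini-Hochberg over all kept probes) between HS and TN, beside 0.0191% of all kept probes, and 0 had an unadjusted p under 0.05, beside 8.68%. The 21 log2 differences of HS minus TN ranged from -0.13 to 0.17 with a median of 0.01, and the smallest adjusted p was 0.600. In simulated data with the same groups, limma recovered 88% of probes changed by 0.5 log2 units and 99% of those changed by 1 in this comparison. There were 10 false calls over 47024 probes. The simulated noise was independent between arrays, without slide or litter, and the changed probes were drawn at random. The SDs within groups of FSHB, GNRHR and NR5A1 were at percentiles 92.1, 90.2 and 89.6 of all kept probes, so these recovery rates do not describe them.

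LHB was at 17.58 ± 0.30 (SD, n = 16) in TN and 17.57 ± 0.29 (n = 17) in HS, a log2 difference of -0.01 with a 95% interval of -0.20 to 0.18. FSHB was at 16.31 in both conditions, with an SD of 0.44 in TN and 0.34 in HS, and its interval ran from -0.25 to 0.27. CGA differed by -0.01 (interval -0.07 to 0.04). The interval was widest for FSHB and narrowest for CGA, whose values lay near the top of the intensity range. GNRHR was at 12.92 ± 0.41 in TN and 12.79 ± 0.51 in HS (difference -0.11, interval -0.35 to 0.14), and NR5A1 differed by -0.04 (interval -0.28 to 0.20). Without LW TN 2 and CR TN 1, both TN arrays with low values, HS minus TN was -0.19 for NR5A1 (SE 0.09, limma adjusted p 0.641), -0.20 for GNRHR, -0.10 for LHB, -0.10 for FSHB and -0.04 for CGA, and 0 member probes passed. In the activin system FST had the smallest p of the 21 probes, with 8.31 ± 0.15 in TN and 8.41 ± 0.16 in HS. Its difference of 0.11 (interval -0.0041 to 0.22, unadjusted limma p 0.0586, adjusted p 0.600) was seen in 13 of 17 HS arrays relative to the TN mean of their breed. INHBA differed by 0.04 and INHBB by 0.01. Among the markers of other cells, the haemoglobin gene HBB was lower in HS (-1.15, limma adjusted p 0.0307, 16 of 17 arrays), and its part in these values was not tested. For the slide as a factor, 0 of the 21 member probes passed by limma, beside 14.6% of all kept probes. At an unadjusted p under 0.05 there was 1, for which the share of all kept probes was not counted.

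Within each breed limma also called 0 of 21 probes and 0% of all kept probes. Unadjusted p-values under 0.05 were found for 0 member probes among LW, 0 among CR and 1 among F1 arrays, beside 6.76%, 5.88% and 5.71% of all kept probes. In Large White 20 of the 21 differences of HS minus TN were above 0 (median 0.14), in Creole 11 (median 0.01) and in F1 6 (median -0.03), whereas of all kept probes 51.7%, 51.1% and 52.9% were above 0. Without LW TN 2 and CR TN 1 the counts were 17 (median 0.05) in Large White and 5 (median -0.05) in Creole, and 0 member probes passed. For LHB these differences were 0.21 for LW, -0.03 for CR and -0.21 for F1 pigs, and for GNRHR 0.20, -0.24 and -0.28. Without both arrays 1 member probe in LW, 1 in CR and 3 in F1 had an unadjusted limma p under 0.05, not counted over all kept probes. LHB was then at 0.09 in LW and -0.16 in CR, GNRHR at 0.10 and -0.40, and NR5A1 went from 0.14 to -0.05 in LW and from 0.05 to -0.19 in CR. The other GNRHR probe, A_72_P146736, went from -0.24 to -0.47 in CR (unadjusted limma p 0.0189, adjusted p 0.939). These breed contrasts were tested as an interaction of breed and temperature, for which 0 of 21 probes and 0% of all kept probes passed (smallest adjusted limma p 0.925). The 1 member probe with an unadjusted interaction p under 0.05 was FST A_72_P098086 (p 0.0203), which was near background.

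The second comparison asked how the 3 genetic groups differed. GNRHR, NR5A1, FSHB and INHBB were higher in Large White than in Creole on at least 1 probe each. In F1 against Creole, probes of GNRHR, FSHB, INHBB and NR5A1 were higher in F1. By limma 5 of 21 member probes passed in Large White against Creole, all higher in Large White, where 3.53% of all kept probes were called higher and 6.53% in either direction. At an unadjusted p under 0.05 were 11 of 21, beside 18.4%. In F1 against Creole 5 of 21 passed, all higher in F1, beside 3.35% higher and 6.66% in either direction, and 9 of 21 had an unadjusted p under 0.05, beside 21.5%. Both comparisons use the same 11 Creole arrays and are not independent. In F1 against Large White 0 of 21 passed, beside 1.43% of all kept probes, and 0 had an unadjusted p under 0.05, beside 13.7%, with differences from -0.11 to 0.10. Without LW TN 2 and CR TN 1, F1 minus Large White went from -0.09 to -0.20 for NR5A1 (limma adjusted p 0.370), from -0.07 to -0.14 for LHB, from 0.03 to -0.07 for FSHB and from 0.05 to -0.02 for GNRHR, and 0 member probes passed.

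**Figure D2:**
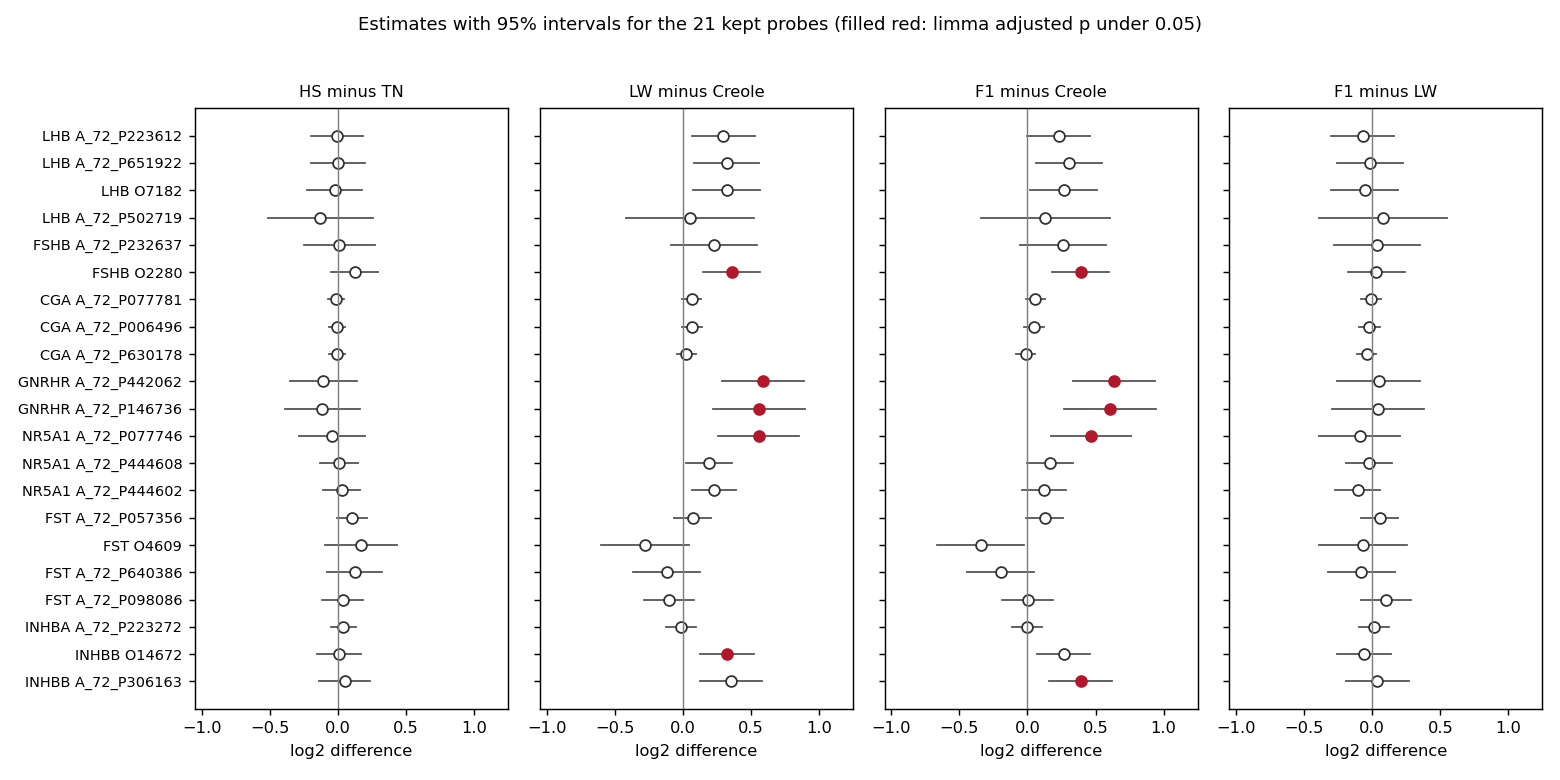
Log2 differences (horizontal axes) with 95% intervals from the limma fit for the 21 kept member probes, in 4 comparisons. Filled red points passed the adjusted threshold of 0.05. The 5 called probes of LW minus Creole and the 5 of F1 minus Creole all lie above 0, and none was called for HS minus TN or F1 minus LW.

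GNRHR, through which the hypothalamus drives the gonadotroph, had the largest breed difference among the members. Its bright probe A_72_P442062 measured 13.33, 12.51, 12.90, 12.85 and 12.99 on the LW TN arrays and 12.69 to 13.50 (median 13.16) on the 6 LW HS arrays. On the CR TN arrays it measured 11.92, 12.94, 12.67, 12.80 and 12.52, and on the 6 CR HS arrays 11.90 to 12.62 (median 12.34). The 6 F1 TN arrays lay between 12.77 and 13.50 (median 13.30), and the F1 HS arrays at 13.21, 13.61, 12.01, 12.86 and 12.97. The CR HS arrays thus lay below every LW HS array, whereas CR TN and LW TN overlapped and F1 HS 3 fell among the Creole arrays. How many of all kept probes separated LW HS from CR HS was not counted, so the separation is not read as particular to GNRHR. The mean was 13.03 ± 0.30 (SD, n = 11) in LW, 13.08 ± 0.45 in F1 and 12.44 ± 0.33 in CR pigs. The log2 difference of Large White minus Creole was 0.59 (SE 0.15, interval 0.29 to 0.89, 1.51-fold, limma adjusted p 0.0112), and 11 of 11 LW arrays lay above the mean of all Creole arrays, the reference for such counts below. F1 minus Creole was 0.64 (SE 0.15, 1.56-fold, limma adjusted p 0.00841), in 10 of 11 F1 arrays.

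The other GNRHR probe, A_72_P146736, gave nearly the same result, with 0.56 for Large White minus Creole (limma adjusted p 0.0342) and 0.61 for F1 minus Creole (adjusted p 0.0238). Over the 33 arrays both probes varied together within groups (r = 0.90). On each of the 5 slides the LW mean and the F1 mean of A_72_P442062 exceeded the CR mean, by 0.30 to 0.97 and by 0.33 to 0.88. The 0.97 is from slide 1, which held 1 array of each breed, LW TN 1 and CR HS 1 among them, and on the other 4 slides Large White exceeded Creole by 0.30 to 0.76. Without LW HS 3 the bright probe kept its call (0.56, limma adjusted p 0.0223) and the other did not (adjusted p 0.0600). The call of A_72_P146736 was lost in 8 of 33 fits without single arrays in Large White against Creole, with limma adjusted p-values up to 0.0730, and in 2 in F1 against Creole (without CR TN 1 or F1 HS 2). With LW HS 3 taken as Creole it was lost in both comparisons (adjusted p 0.145 and 0.0634). With LW HS 3 taken as Creole the difference was 0.50 (adjusted p 0.0738) for the bright probe, so this label decides the call against Large White, whereas F1 minus Creole was 0.57 (adjusted p 0.0301).

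NR5A1, the transcription factor that marks the lineage, differed in the same direction on its bright probe A_72_P077746. It measured 9.57, 8.55, 9.42, 9.31 and 9.66 on the LW TN arrays and 8.93 to 9.76 (median 9.52) on the LW HS arrays. The CR TN arrays lay at 7.85, 8.84, 9.25, 8.78 and 9.23 and the CR HS arrays between 8.63 and 9.01 (median 8.83). F1 TN arrays ranged from 9.10 to 9.84 (median 9.42), and F1 HS arrays measured 9.10, 9.30, 9.39, 8.90 and 8.89. LW and CR arrays overlapped through LW TN 2, LW HS 3, LW HS 4 and the upper CR TN arrays. The means were 9.38 ± 0.37 in LW, 9.29 ± 0.30 in F1 and 8.82 ± 0.38 in CR pigs (SD, n = 11 each). Large White minus Creole was 0.56 (SE 0.14, interval 0.26 to 0.85, 1.47-fold, limma adjusted p 0.0142), in 10 of 11 LW arrays, and passed also without LW HS 3 (0.58, adjusted p 0.0171) and with it taken as Creole (0.55, adjusted p 0.0286).

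F1 minus Creole was 0.46 for NR5A1 (SE 0.15, limma adjusted p 0.0472), in 11 of 11 F1 arrays. This call did not hold in 23 of 33 fits without single arrays, with limma adjusted p-values of up to 0.0962 without CR TN 1 and of 0.0508 without LW HS 3, and with LW HS 3 taken as Creole (adjusted p 0.0730). Without both LW TN 2 and CR TN 1 it was 0.34 (adjusted p 0.0434). The dim probes A_72_P444608 and A_72_P444602 differed by 0.19 and 0.23 between Large White and Creole and did not pass (limma adjusted p 0.186 and 0.0830). They followed the bright probe over the arrays, with r of 0.83 and 0.79 within groups. The mean of the 3 probes differed by 0.33 (limma adjusted p 0.0323). Ordered by group mean, NR5A1 ran from LW HS over F1 TN, LW TN, F1 HS and CR HS to CR TN, and GNRHR from F1 TN over LW HS, F1 HS, LW TN and CR TN to CR HS. Of all neighbours in the order of the 8 genes, only F1 HS and CR HS for NR5A1 differed by more than the larger of their SDs, by 0.28 against 0.23.

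FSHB, the beta subunit of FSH, was read by 2 probes that shared no run over 5 bases and gave different calls. The bright probe A_72_P232637 measured 16.74, 15.51, 16.30, 16.60 and 16.58 in LW TN and 15.59, 16.05, 16.79, 15.70 and 16.04 in CR TN, and the groups overlapped widely. It differed by 0.23 between Large White and Creole (SE 0.15, interval -0.09 to 0.54, limma adjusted p 0.484) and by 0.26 between F1 and Creole (adjusted p 0.341). The Large White value was 0.15 without LW HS 1, 0.32 without LW TN 2 and 0.14 with LW HS 3 taken as Creole. The dim probe O2280 ranged from 8.72 to 9.85 (median 9.63) on LW arrays, from 9.28 to 9.75 (median 9.54) on F1 arrays and, on CR arrays, from 8.42 to 9.50 (median 9.21). Apart from LW TN 2 at 8.72, the LW arrays lay at or above 9.30, and 9 of 11 CR arrays lay below the lowest F1 array. On O2280 Large White minus Creole was 0.36 (SE 0.10, 1.28-fold, limma adjusted p 0.0272), in 10 of 11 LW arrays, and F1 minus Creole was 0.39 (SE 0.10, 1.31-fold, adjusted p 0.0188), in 11 of 11 F1 arrays. Both probes varied together within groups (r = 0.68). Without LW HS 3 the O2280 call against Large White was lost (0.33, adjusted p 0.0549), as it was without LW TN 1 or CR TN 1 and with LW HS 3 taken as Creole (0.28, limma adjusted p 0.174). The F1 call was kept without LW HS 3 (adjusted p 0.0194) and lost with it taken as Creole (adjusted p 0.0632).

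LHB, the beta subunit of LH, was higher in the same direction without passing. Its bright probe measured 18.04, 17.10, 17.80, 17.62 and 17.35 in LW TN and 17.44 to 18.21 (median 17.75) in LW HS. In Creole it measured 16.87, 17.54, 17.74, 17.45 and 17.46 in TN and 17.16 to 17.62 (median 17.38) in HS. The LW and CR ranges overlapped at both temperatures. The breed means were 17.70 ± 0.32 in LW, 17.63 ± 0.24 in F1 and 17.40 ± 0.25 in CR pigs (SD, n = 11). Large White minus Creole was 0.30 (SE 0.11, interval 0.07 to 0.53, limma adjusted p 0.122; without LW TN 2 it passed, at 0.36 and adjusted p 0.0331) and F1 minus Creole 0.23 (interval -0.0030 to 0.46, adjusted p 0.239). The 2 other bright probes, which cover the same stretch, followed it with r of 0.98 within groups and are no separate evidence.

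The fourth LHB probe, A_72_P502719, did not follow the others (r from -0.29 to -0.21 within groups). It measured 8.48 on CR TN 4, 8.41 on LW HS 3, 8.23 on F1 TN 4 and 8.09 on F1 HS 4, and between 6.33 and 7.36 on the other 29 arrays. The 4 high arrays came from all 3 breeds and both temperatures, and lay on slides 3 and 4. Its longest run in common with any other LHB probe was 6 bases, and its target is another record than that of the bright probes.

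CGA, the alpha subunit shared by LH, FSH and thyrotrophin, hardly varied in these normalized values. Its 3 probes ranked 11, 18 and 37 of the 47083 kept probes by mean. So near the top, quantile normalization gives all arrays nearly the same values, and the small spread is not read as a small spread of the RNA. Its bright probe ranged from 18.95 to 19.07 in Large White, from 18.94 to 19.12 in F1 and from 18.78 to 19.05 in Creole. Large White minus Creole was 0.07 (interval -0.0048 to 0.14, limma adjusted p 0.316) and F1 minus Creole 0.06 (interval -0.01 to 0.13, adjusted p 0.366). The 3 CGA probes followed each other with r of 0.25 to 0.66 within groups.

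In the activin system INHBB passed the test between breeds, and FST and INHBA did not. The probe O14672 ranged from 7.61 to 8.04 (median 7.92) on LW arrays, from 7.41 to 8.49 (median 7.81) on F1 arrays and from 7.21 to 7.92 (median 7.57) on CR arrays. All 6 LW HS arrays (7.73 to 8.04) lay above the 6 CR HS arrays (7.24 to 7.69), whereas LW TN and CR TN overlapped. Such a separation was not counted over all kept probes. Large White minus Creole was 0.33 (SE 0.10, interval 0.13 to 0.53, limma adjusted p 0.0351), in 11 of 11 LW arrays, and F1 minus Creole was 0.26 (adjusted p 0.0956). On the other probe, A_72_P306163, F1 minus Creole was 0.39 (SE 0.11, limma adjusted p 0.0323), in 11 of 11 F1 arrays, and Large White minus Creole was 0.36 (adjusted p 0.0536), which passed in 7 of 33 fits without single arrays (adjusted p from 0.0219), with slide as a random block (0.0465) and with normexp background correction (0.0448). The mean of the 2 probes differed by 0.34 between Large White and Creole (limma adjusted p 0.0215). The O14672 call did not hold in 12 of 33 fits without single arrays, among them LW HS 3 (limma adjusted p 0.0626), and with LW HS 3 taken as Creole (adjusted p 0.153). The A_72_P306163 call in F1 was lost in 8 of these fits, with LW HS 3 taken as Creole (adjusted p 0.126) and without both LW TN 2 and CR TN 1 (adjusted p 0.0503).

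INHBA, which encodes the other activin subunit, ranged from 11.36 to 11.82 in Large White, from 11.31 to 11.66 in F1 and from 11.30 to 11.65 in Creole, with means of 11.48, 11.49 and 11.49. Large White minus Creole was -0.01 (interval -0.12 to 0.10, limma adjusted p 0.941). FST differed by 0.07 between Large White and Creole on its bright probe A_72_P057356 (interval -0.06 to 0.21, adjusted p 0.644) and by 0.13 between F1 and Creole (adjusted p 0.272). The FST probes O4609 (-0.28) and A_72_P640386 (-0.12) pointed the other way in Large White against Creole without passing. They did so too in F1 against Creole, at -0.34 (unadjusted limma p 0.0368, adjusted p 0.195) and -0.20 (adjusted p 0.368), and the F1 mean lay below the Creole mean on all 5 slides for both. The fourth, A_72_P098086, was well above background on 5 of 11 LW arrays and is not read for a direction. O4609 and A_72_P640386 varied together (r = 0.90) but followed A_72_P057356 less closely (r = 0.42 and 0.24), so the direction for FST depends on the probe.

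The breed differences were also read at each temperature, as contrasts of the 6 group means in a fit of all 33 arrays, which were chosen after the data were seen. At HS, 3 member probes passed in Large White against Creole, both GNRHR probes (0.79 and 0.81, limma adjusted p 0.0223 and 0.0305) and INHBB A_72_P306163 (0.54, adjusted p 0.0403), beside 3.04% of all kept probes. Without LW HS 3, 1 of these calls held, that of GNRHR A_72_P442062 (0.77, limma adjusted p 0.04998), and those of A_72_P146736 (adjusted p 0.0624) and INHBB A_72_P306163 (0.45, adjusted p 0.124) were lost. With LW HS 3 taken as Creole 0 passed (smallest adjusted p 0.207). At TN 0 passed in this comparison (smallest adjusted p 0.364), beside 0.935%, with 2 member probes at an unadjusted p under 0.05, beside 9.91%. The same 3 probes differed at TN by 0.35 (GNRHR A_72_P442062), 0.26 (GNRHR A_72_P146736) and 0.13 (INHBB A_72_P306163). That the breed difference changed with temperature was not shown, since the interaction had an unadjusted limma p of 0.199, 0.0703 and 0.171 for these probes. For F1 against Creole 0 member probes passed at TN and 0 at HS (smallest adjusted p 0.152 and 0.125), beside 0.548% and 0.926%, with 9 and 6 at an unadjusted p under 0.05, beside 11.5% and 16.8%. GNRHR in F1 minus Creole was 0.64 at TN and 0.60 at HS.

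Markers of other cells moved between the breeds too, with the brightest kept probe of each gene. Of the 4 endothelial markers KDR (0.94) and CDH5 (0.41) were higher in Large White than in Creole, and the mean level of the list ranged from 9.89 to 11.32 in Large White and from 9.60 to 10.76 in Creole. The other 2 KDR probes differed by 0.10 to 0.15 and did not pass. Of the 3 thyrotroph markers TRHR (-0.48) and DIO2 (-0.44), and of the 3 somatotroph markers GHRHR (-0.40) and POU1F1 (-0.34), were lower in Large White. The mean of the somatotroph list ranged from 13.91 to 14.33 in Large White and from 14.19 to 14.57 in Creole, and that of the thyrotroph list from 8.82 to 11.58 (median 11.22) in Large White and up to 12.16 (median 11.96) in Creole, whose lowest array lay below the Large White median, so that the ranges overlapped. In F1 against Creole the folliculostellate markers ANXA1 (-0.67) and S100B (-0.39) were lower, 2 of 3, and 1 of 4 endothelial markers, KDR (0.59), was higher, while the other 3 were at -0.06 to -0.02 and did not pass. The mean of the folliculostellate list ranged from 12.35 to 13.18 in F1 and from 12.84 to 13.44 in Creole. These are the calls by limma among the lists. The lactotroph, corticotroph, melanotroph, posterior lobe, blood and leukocyte lists gave 0 calls in either comparison. In F1 against Large White DIO2 was higher (0.43), the only call of these lists. The part of such shifts in the gonadotroph results was not tested. Without LW TN 2 and CR TN 1, where endothelial markers were highest, 6 member probes passed in Large White against Creole and 4 in F1 against Creole. Of the 47083 kept probes 3079 and 3055 passed. GNRHR was then 0.59 (limma adjusted p 0.00936) and NR5A1 0.54 (adjusted p 0.00123) higher in Large White. These fits leave out 1 array of each of the 2 breeds and do not test the part of other cells.

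The other genes of the gonadotroph pathways were counted with the brightest kept probe of each gene, against 10241 genes with a kept probe. Among transcription factors of gonadotrophs and pituitary development, 12 of 15 genes were kept, and in Large White against Creole 2 were higher and 0 lower, with a median difference of -0.01, beside 6.98% of all genes called and a median of 0.0028. They were NR0B1, a nuclear receptor that represses the activity of NR5A1, at 9.64 ± 0.41 in Large White and 8.77 ± 0.43 in Creole (difference 0.87, SE 0.17, limma adjusted p 0.00110), and FOXL2, a factor that acts with activin signalling on FSHB, at 12.10 ± 0.25 and 11.69 ± 0.38 (difference 0.42, SE 0.11, adjusted p 0.0155). NR0B1 was higher in 11 and FOXL2 in 10 of 11 LW arrays. The second NR0B1 probe differed by 0.11 and was not called. In F1 against Creole 3 of the 12 were higher and 0 lower (median 0.08), beside 7.72% of all genes. They were NR0B1 (0.74, limma adjusted p 0.00803), FOXL2 (0.44, adjusted p 0.0127) and PITX1, an early pituitary factor (0.24, adjusted p 0.0443). PITX1 was also higher in F1 than in Large White (0.29, adjusted p 0.0391), the only 1 of the 12 in that comparison, beside 1.51% of all genes. The PITX1 calls were lost in 15 of 33 fits without single arrays against Creole and in 12 against Large White (limma adjusted p up to 0.0940 and 0.0742). The call against Creole was also lost without both LW TN 2 and CR TN 1 (0.19, adjusted p 0.0897), with the processed signal of the scanner (adjusted p 0.0709), with no filter (0.0533) and with array weights (0.0585). That against Large White was lost with the processed signal (adjusted p 0.116), without LW HS 3 (adjusted p 0.0685) and with it taken as Creole (adjusted p 0.0817). With LW HS 3 taken as Creole the FOXL2 call in Large White against Creole was lost (0.38, limma adjusted p 0.0579), and those of NR0B1 held.

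Among the steroid and metabolic receptors, 8 of 11 genes were kept. ESR1, the oestrogen receptor through which steroid feedback acts on gonadotrophs, was higher in Large White (10.08 ± 0.14) and in F1 (10.06 ± 0.21) than in Creole (9.60 ± 0.22). The differences were 0.48 (SE 0.08, limma adjusted p 9.3e-05) and 0.45 (SE 0.08, adjusted p 0.000602), each in 11 of 11 arrays, and 4 and 2 of its 4 other probes were called with it. NR3C1, the glucocorticoid receptor, was lower in Large White (-0.21, SE 0.06, limma adjusted p 0.0279), with 1 of its 3 other probes called, and its call was lost without CR HS 1, CR HS 2, LW HS 4 or LW HS 5 (adjusted p up to 0.0607) and with LW HS 3 taken as Creole (adjusted p 0.0874). No other receptor of the list passed, so that 1 of 8 was higher and 1 lower in Large White against Creole, and 1 higher and 0 lower in F1 against Creole, beside 6.98% and 7.72% of all genes called in either direction.

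In the activin, inhibin and BMP pathway 29 of 35 genes were kept, and 0 were higher and 2 lower in Large White against Creole (median -0.02), beside 6.98% of all genes called. CHRD, which binds bone morphogenetic proteins, was at 6.79 ± 0.19 in Large White and 7.15 ± 0.24 in Creole (difference -0.36, limma adjusted p 0.00411), and its other probe was called as well. IGSF1, a membrane glycoprotein of pituitary cells, differed by -0.33 (limma adjusted p 0.0106), with 6 of its 6 other probes called. On the bright probe the IGSF1 call was lost with LW HS 3 taken as Creole (-0.28, limma adjusted p 0.0830) and with the processed signal of the scanner (-0.29, adjusted p 0.0820). In F1 against Creole the only call among the 29 was ACVR1, a type I receptor of the family (-0.26, adjusted p 0.0102), whose 5 other probes ranged from -0.50 to 0.26, beside 7.72% of all genes, and in F1 against Large White it was CHRD (0.37, adjusted p 0.0183), beside 1.51%. In GnRH receptor signalling 31 of 43 genes were kept and 0 passed in any of the breed comparisons, beside 6.98% of all genes in Large White against Creole, 7.72% in F1 against Creole and 1.51% in F1 against Large White, with medians of 0.0023 in Large White against Creole and 0.02 in F1 against Creole.

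**Figure D3:**
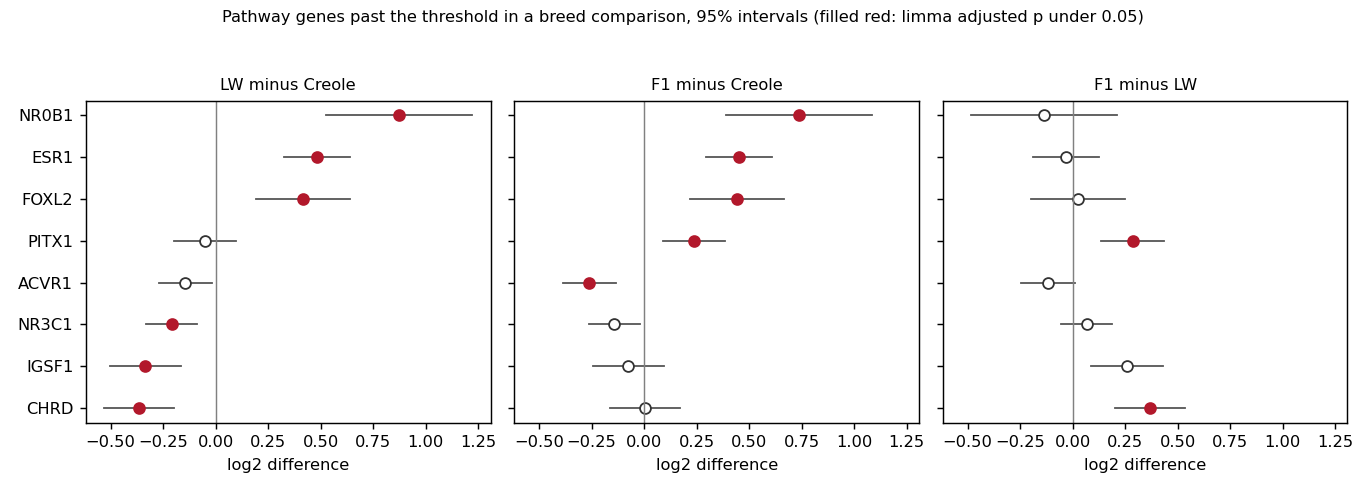
Log2 differences (horizontal axis, 1 scale) with 95% intervals of the 8 pathway genes that passed the adjusted threshold of 0.05 in at least 1 breed comparison by limma, shown by filled red points. NR0B1, ESR1 and FOXL2 lie above 0 against Creole for both LW and F1, and CHRD, IGSF1 and NR3C1 below 0 for LW minus Creole.

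Between HS and TN 0 genes of these 4 lists passed by limma, beside 0.0195% of all genes. The smallest p-values of the GnRH signalling list belonged to the immediate early genes JUN (-0.40, adjusted p 0.170) and FOS (-1.06, adjusted p 0.350) and to NAB1, a co-repressor of EGR1 (0.09, adjusted p 0.512). FOS varied widely, at 13.00 ± 0.90 in TN and 11.97 ± 1.31 in HS, and EGR1, which GnRH induces and which activates LHB, differed by -0.48 (adjusted p 0.653). Among the transcription factors LHX3 (0.25, adjusted p 0.199, 17 of 17 HS arrays) and PITX1 (0.17, adjusted p 0.346, 15 of 17) had the smallest p-values. In the activin list these were TGFB3 (-0.21, adjusted p 0.355), ACVR2A (0.11, adjusted p 0.553) and FSTL1 (-0.28, adjusted p 0.571), and in the receptor list ESR1 (-0.13, adjusted p 0.551), NR3C1 (0.07, adjusted p 0.713) and PGR (-0.15, adjusted p 0.723). Without LW TN 2 and CR TN 1, TGFB3 was -0.13, FSTL1 -0.10 and NAB1 0.06. With array weights FSTL1 was -0.15, LHX3 0.16 and NAB1 0.06. PGR was -0.36 with the processed signal and -0.10 with normexp, and NR3C1 was 0.11 with the processed signal.

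The third question was whether the gonadotroph genes varied together between pigs of 1 group. The deviations of each array from its group mean were correlated for 13 gene pairs over the 33 arrays, with 100000 permutations of arrays within groups, and 7 pairs passed after Benjamini-Hochberg adjustment over the 13. LHB and FSHB were most closely related, with Pearson's r of 0.72 (permutation p 0.00011, adjusted p 0.00143) and Spearman's rho of 0.65 (permutation p 0.00023, adjusted p 0.00299). Without the 2 arrays farthest from the median of LHB, CR TN 1 and LW HS 1, r was 0.66, and within the 4 slides with at least 7 arrays it ranged from 0.37 to 0.91. LHB with NR5A1 gave an r of 0.62 (permutation p 0.00168, adjusted p 0.0109, rho 0.53, rho adjusted p 0.0184), an r of 0.51 without both farthest arrays, and 0.44 to 0.97 within slides. FSHB with NR5A1 gave 0.57 (adjusted permutation p 0.0221, rho 0.46, rho adjusted p 0.0505) and 0.29 to 0.84 within slides.

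The alpha subunit followed less closely by Pearson's r, though not by rho for CGA with FSHB. CGA gave an r of 0.55 with NR5A1 (adjusted permutation p 0.0371, rho 0.41, rho adjusted p 0.0791), 0.52 with FSHB (adjusted permutation p 0.0221, rho 0.62, rho adjusted p 0.00461) and 0.47 with LHB (adjusted permutation p 0.0333, rho 0.43, rho adjusted p 0.0505). Within slides these 3 values ranged from -0.12 to 0.91, from -0.05 to 0.70 and from -0.40 to 0.88, so they did not hold on every slide. FSHB with INHBA gave an r of 0.45 (adjusted permutation p 0.0333, rho 0.37, rho adjusted p 0.0791) and -0.13 to 0.74 within slides. GNRHR did not pass with LHB (r 0.37, adjusted permutation p 0.0996), FSHB (0.18, adjusted permutation p 0.382), CGA (0.19, adjusted permutation p 0.382) or NR5A1 (0.26, adjusted permutation p 0.265). FSHB had an r of 0.25 with FST and 0.11 with INHBB (adjusted permutation p 0.291 and 0.563). The 13 pairs were all pairs of LHB, FSHB, CGA, GNRHR and NR5A1 and those of FSHB with the activin system. The other pairs were not tested, and among them GNRHR with INHBB had an r of 0.56 and LHB with FST of 0.48.

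Of these 7 pairs 5 no longer passed without LW TN 2 and CR TN 1, the arrays with low TSHB. The 2 that did were LHB with FSHB (r 0.62, adjusted permutation p 0.00507) and FSHB with INHBA (r 0.60, adjusted permutation p 0.0196). LHB with NR5A1 then had an r of 0.36 (adjusted permutation p 0.225), FSHB with NR5A1 0.37 (adjusted permutation p 0.292) and CGA with NR5A1 0.11 (adjusted permutation p 0.763). With the mean of all kept probes of each gene, LHB with FSHB passed (r 0.63, adjusted permutation p 0.00559) and FSHB with INHBA did not (r 0.30, adjusted permutation p 0.149).

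**Figure D4:**
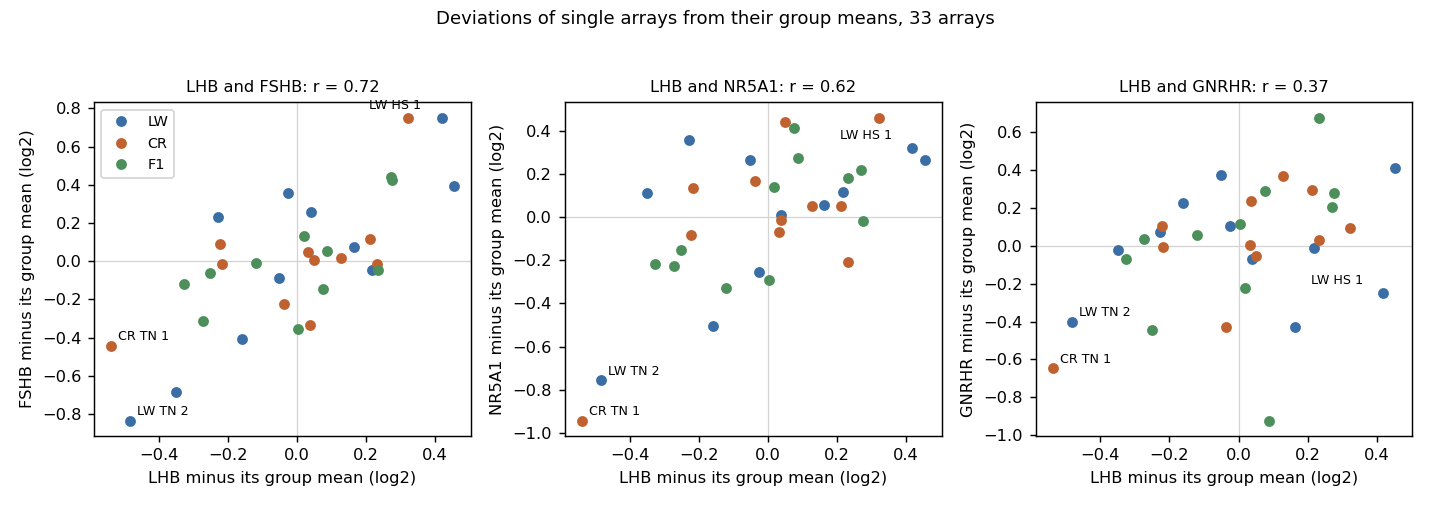
Deviation of each of 33 arrays from its group mean for LHB (horizontal axes) against FSHB, NR5A1 and GNRHR (vertical axes), in log2 units and coloured by breed. LHB and FSHB rise together (r = 0.72), and LW TN 2 and CR TN 1 lie at the low end of LHB and below 0 for the other genes.

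Over all 10229 named genes compared, the 3 genes whose brightest probe followed each member most closely within groups are given as a description over the 33 arrays. For LHB these were CHID1 (r = 0.87), SSR4 (0.86), a subunit of the translocon-associated complex of the endoplasmic reticulum, and GPX3 (0.82), a secreted glutathione peroxidase. For FSHB they were SLC7A4 (0.80), IPO5 (0.78) and HYAL3 (0.78), and for CGA RAI2 (0.77), GNB5 (0.74) and IL13RA1 (0.73). GNRHR was most like UBA6 (0.82), GRB14 (0.76) and BEND5 (0.75). NR5A1 was followed by IGDCC4 (0.90), MME (0.83), a membrane endopeptidase, and LNX1 (0.83). FST was followed by DUSP5 (0.83), MRPL22 (0.82) and CSF2RB (0.81), INHBA by RPS14 (0.74), DNPEP (0.74) and SCNM1 (0.73), and INHBB by POLR2L (0.74), PPP2R5D (0.73) and MAGI3 (0.71). All these points share arrays and normalization, and no member appeared among the 3 genes of another.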

How the data were processed

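The authors scanned 33 single-colour arrays and extracted spots with Agilent Feature Extraction 10.10.1.1, according to the file headers. Each deposited scanner file gives the intensity of each spot, and the authors' deposited table gives normalized log2 values of 45667 probes, used as an alternative. Their table held 21 member probes, which differed from the values used here by at most 0.0465. Following the methods of the study, median pixel intensity without background correction was quantile-normalized and log2-transformed after control and outlier spots (at most 12 per array) were removed, which gave 60305 probes from 60306 spots. Probes were kept (47083, 78.1%) if 75% or more of the arrays of any group showed them well above background. Per array, 73.5% to 82.2% of spots met this mark, the median intensity ranged from 131 to 165, no spot was saturated, and the number of arrays limits the precision. No build is named in the files used here.

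Differences were fitted with limma 3.58.1 in R 4.3.3, with breed and temperature as terms. A model of the 6 group means gave the contrasts within breeds, the interaction and the breed contrasts at each temperature, and Benjamini-Hochberg adjustment was over all 47083 probes with a threshold of 0.05. The study's random effects of pen, slaughter, father and mother could not be fitted, since the labels name none of these. Scripts were tested on simulated data. Correlations were computed with Python 3.11.15 and numpy 2.4.6. The 23564 named probes covered 10241 symbols with a kept probe.

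All probes of the 8 genes are accounted for, and the brightest kept probe of a gene is given in full. From the gene lists, every gene that passed was named, up to the 5 smallest p-values per list and comparison, with the 3 smallest for HS against TN, and the 3 genes most like each member. EGR1 follows from this rule, and other list members are given as counts. The members, the lists and the checks of single arrays were chosen with earlier results of these data known. Alternatives were other background corrections and normalizations, filters, array weights, slide as a fixed or random block, the label of LW HS 3, and each array left out.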

Additional observations from a re-analysis of the deposited data

Results flagged for a closer look

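INHBA on LW HS 1 stood apart from the other arrays of its group. It measured 11.82, whereas the other 5 LW HS arrays lay between 11.36 and 11.51. The gap to the nearest array was 0.69 of the range of the group, above the critical value of 0.625 for 6 arrays. In all, 48 sets of 1 gene and 1 group were examined, of which chance alone marks about 1 in 20. LW HS 1 also had the highest LHB (18.21), FSHB (17.16) and NR5A1 (9.76) of its group.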

How the results depend on the processing

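Each pig gave 1 array and the labels do not identify littermates, so no paired analysis was possible. The counts of called member probes were 0 for HS against TN, within breeds, for the interaction and for F1 against Large White under every alternative run. In Large White against Creole 5 member probes were called, 1 with LW HS 3 taken as Creole, 2 without it, 0 at TN and 3 at HS from the 6 group means of all arrays (1 at HS without LW HS 3, 0 at HS with it taken as Creole, and 0 at TN under both readings), and 2 to 9 without single arrays (2 without LW HS 3, 9 without LW TN 2). In F1 against Creole 5 were called, 1 with LW HS 3 taken as Creole, 0 at TN, 0 at HS, and 2 to 7 without single arrays (2 without CR TN 1 or F1 HS 2). Other normalizations, filters, array weights and slide terms gave 4 to 6 and 4 to 5. The calls over all kept probes moved too. In Large White against Creole they were 3074 of 47083, 1842 with LW HS 3 taken as Creole and 2701 without it. In F1 against Creole they were 3137, 2136 with LW HS 3 taken as Creole, 2590 without CR TN 1 and 2037 without F1 HS 2. Without single arrays they ranged from 2583 to 3536 and from 2037 to 4182. The NR5A1 call in F1 was lost with no filter (limma adjusted p 0.0575), and that of INHBB O14672 with the processed signal (adjusted p 0.0555). Of the 13 correlations 7 passed, 4 with the mean of all probes and 2 without LW TN 2 and CR TN 1. Differences near 0 changed sign. For HS against TN, FSHB (A_72_P232637) was -0.0063 with slide as a fixed block, -0.044 with array weights, -0.012 without LW HS 3, -0.10 without LW TN 2 and CR TN 1, -0.00041 without the breed term and -0.054 to 0.061 without single arrays. INHBB (O14672) was -0.00099 with slide as a fixed block, -0.016 with the processed signal, -0.0012 with array weights, -0.00014 without LW HS 3 and -0.042 to 0.041 without single arrays. LHB was 0.022 with the processed signal, 0.0059 with LW HS 3 taken as Creole and -0.055 to 0.025 without single arrays, and CGA was 0.028 with the processed signal. For F1 against Large White, LHB was 0.038 and CGA 0.069 with the processed signal, FSHB was -0.068 and GNRHR -0.023 without LW TN 2 and CR TN 1, and without single arrays FSHB was -0.062 to 0.11, GNRHR -0.018 to 0.16 and INHBA -0.0060 to 0.043. For F1 against Creole INHBA was 0.00039 with the processed signal, 0.0056 with array weights, 0.036 at TN and -0.022 to 0.019 without single arrays. FST was -0.11 in Large White against Creole as the mean of its probes. Without LW TN 2 and CR TN 1 the r of FSHB with GNRHR was -0.040, of CGA with GNRHR -0.21 and of GNRHR with NR5A1 -0.12. The cause of these changes was not tested.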
